A study of Mus musculus with 10 samples.

Results

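Kidneys of mice labelled G2-APOL1 (2 libraries) were compared with kidneys of mice labelled G1-APOL1 (2 libraries), by poly(A) RNA sequencing. These 4 libraries, of 10 in the series, were chosen by their genotype label alone. G1 and G2 are the kidney risk variants of the human gene APOL1, and the series title places their expression in the podocyte, the cell that wraps the glomerular capillaries. The other 6 libraries serve here as a reference: 3 labelled wild type (single mutant) and 3 labelled Control. The labels give neither the driver of the transgene nor any inducing agent, age, sex or strain, and do not say which allele the wild type (single mutant) or Control mice carry. Sample titles of the G1 libraries and of the G2 libraries begin with different letters that the labels do not explain, so whatever those letters stand for cannot be told apart from the genotype. The labels do not say that libraries of 1 genotype came from separate mice, so each p-value measures a spread between libraries. In the main fit that spread was estimated over all 4 groups (10 libraries), and not within G1 and G2 alone. The human transgene is no row of the mouse count tables and was not analysed here.

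A kidney that loses podocyte function passes protein into its tubules. Injured tubule cells lose transport proteins, express keratins, chemokines and complement, and can re-enter the cell cycle. Fibroblasts and pericytes around them lay down collagen while small blood vessels may be lost. Renin, made by a few cells at the glomerular pole, starts the cascade that makes angiotensin, which raises blood pressure and drives fibrosis.

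Levels are given as CPM, a gene's counts per 1000000 counts of its library. The shallowest library held 27596391 counts and the deepest 34815153, and 3 counts equal 0.109 CPM in the first and 0.0862 in the second. Of 46517 genes listed, 17823 passed the count filter and were tested. On the first principal component, which held 50.4% of the variance, the reference libraries lay between 44.31 and 65.68, the G2 libraries at -65.75 and -40.96, and the G1 libraries at -102 and -114.1. Both G2 libraries thus lay between G1 and the reference on that axis. Y-linked genes summed to 0.983 CPM in G1 replicate 2 and to 130 to 176 CPM in the other 9 libraries, and Xist, the RNA that silences an X chromosome, was at 360 CPM in that library alone, against at most 1.13 elsewhere. A fit without that library is therefore described below for the called genes together, for some lists and for a few single genes. All other values include it. Below, each pair of values is replicate 1 then replicate 2, the 3 reference values are the lowest, median and highest of 6 libraries, and each log2 fold change is G2 minus G1 with its standard error (SE).

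G2 kidneys differed from G1 kidneys in 1198 of 17823 genes at an adjusted p under 0.05 (6.72%), of which 684 were higher in G2 (3.84%) and 514 lower (2.88%). These shares are the background for each edgeR count of called list members below. All 1198 had no overlap between the 2 G1 and the 2 G2 values. Over all tested genes, both G2 libraries lay above both G1 libraries in 29.2% and below them in 26.7%, so lack of overlap is common here. Scaling by library totals alone gave 576 higher and 597 lower, and DESeq2's size factors gave 613 and 626. Which direction held more calls therefore depended on the scaling, while the median log2 fold change over all genes was 0.04 with the main scaling and -0.01 with totals. For context, 6656 genes differed between G1 and Control (37.3%) and 3843 between G2 and Control (21.6%). Those comparisons share their Control libraries.

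Genes of cell division were lower in G2 than in G1. Of 73 tested genes of DNA replication and mitosis, 43 fell and 0 rose, with a median log2 fold change of -1.25 beside 0.04 over all genes. Among them were 30 of 40 genes of mitosis and 13 of 33 genes of DNA replication. Both G2 libraries lay below both G1 libraries in 72 of the 73, against 26.7% of all genes. Even so, G2 was not back at the reference: both G2 libraries exceeded all 6 reference libraries in 64 of the 73, and both G1 libraries did so in 71, against 21.8% and 27.6% of all genes. The list stood 2.86 and 3.16 above the reference mean on the log2 scale in G1, and 1.90 and 1.62 in G2.

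Promoters of 3 of these mitotic genes are shown because their set shares a short element. They run from 150 bases before to 20 bases after the RefSeq start of the gene (GRCm38.p6), 5′ to 3′ on the gene's strand. Capitals mark TTTGAA or its reverse complement, the core of the cell cycle homology region through which repressor complexes keep mitotic genes off in resting cells.
Top2a (chr11:99024170-99024339, minus strand): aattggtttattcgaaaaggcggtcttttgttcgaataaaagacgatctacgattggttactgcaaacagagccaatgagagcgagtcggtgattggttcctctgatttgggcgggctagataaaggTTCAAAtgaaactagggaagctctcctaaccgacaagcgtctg
Cdk1 (chr10:69352893-69353062, minus strand): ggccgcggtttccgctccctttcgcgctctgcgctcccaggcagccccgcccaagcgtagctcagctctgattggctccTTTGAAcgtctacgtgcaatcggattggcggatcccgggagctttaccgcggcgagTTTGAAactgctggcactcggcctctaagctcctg
Mki67 (chr7:135716360-135716529, minus strand): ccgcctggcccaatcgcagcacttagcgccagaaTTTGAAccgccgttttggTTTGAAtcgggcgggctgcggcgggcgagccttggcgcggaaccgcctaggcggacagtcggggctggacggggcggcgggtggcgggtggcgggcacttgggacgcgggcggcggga
TTTGAA was present on either strand in 77.1% of 35 promoters of the mitosis genes, over 250 bases before to 50 after the start, in 13.3% of 30 promoters of the replication genes and in 17.9% of all 32851 promoters of that length. CCAAT, the box bound by the factor NF-Y, was present in 82.9%, 66.7% and 37.4% of them. These letters are a description of sequence, and no binding was measured.

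Mki67, the proliferation antigen, was at 58.9 and 77.3 CPM in G1 and 36.1 and 20.4 in G2 (3.1, 3.81 and 5.17 in the reference). It differed by -1.27 ± 0.25 (log2, SE; adjusted p = 0.0255). Top2a, the topoisomerase that untangles chromosomes before they part, was at 35.8 and 50.1 CPM in G1 and 19.2 and 16.3 in G2 (2.43, 2.95 and 3.7 in the reference), a difference of -1.27 ± 0.20 (log2, SE; adjusted p = 0.0134). Cdk1, the kinase that drives entry into mitosis, was at 28.8 and 36.2 CPM in G1 and 13.3 and 9.02 in G2 (1.27, 1.55 and 2.6 in the reference), a difference of -1.54 ± 0.28 (log2, SE; adjusted p = 0.0212). For all 3 genes the order was the same: the reference lowest, G2 between, G1 highest, with no overlap. Rrm2, the subunit of ribonucleotide reductase made when DNA is copied, had the smallest p of the list: it was at 50.3 and 54.8 CPM in G1 and 17.8 and 14.7 in G2 (6.05, 6.91 and 7.68 in the reference). It fell by 1.69 ± 0.15 on the log2 scale (adjusted p = 0.00286), and without G1 replicate 2 it was the single member still called (adjusted p = 0.0479). Mcm5, part of the replicative helicase, was at 28.6 and 35.6 CPM in G1 and 16.8 and 14.5 in G2, a difference of -1.04 ± 0.21 (log2, SE; adjusted p = 0.0275). Pcna, the sliding clamp of DNA polymerase, was at 60.6 and 64.8 CPM in G1 and 38.8 and 34 in G2 with a reference median of 25.1, a difference of -0.78 ± 0.15 (log2, SE; adjusted p = 0.0231). Pcna thus differed least of these 6 named genes on the log2 scale.

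Genes that brake the cell cycle did not pass edgeR's test in either direction (0 of 17, median log2 fold change -0.10; 0 had an unadjusted p under 0.05, and DESeq2 called 0). Cdkn1a, the inhibitor p21, was at 50.3 and 64.9 CPM in G1 and 24 and 37.3 in G2 (6.06, 21.9 and 45.1 in the reference), a difference of -0.91 ± 0.64 (log2, SE; adjusted p = 0.423). Btg2, an antiproliferative gene induced by p53, was at 79.1 and 83.4 CPM in G1 and 35.7 and 52.9 in G2, a difference of -0.87 ± 0.42 (log2, SE; adjusted p = 0.244). Both were lower in both G2 libraries, by less than the test could separate from the spread.

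**Figure D1:**
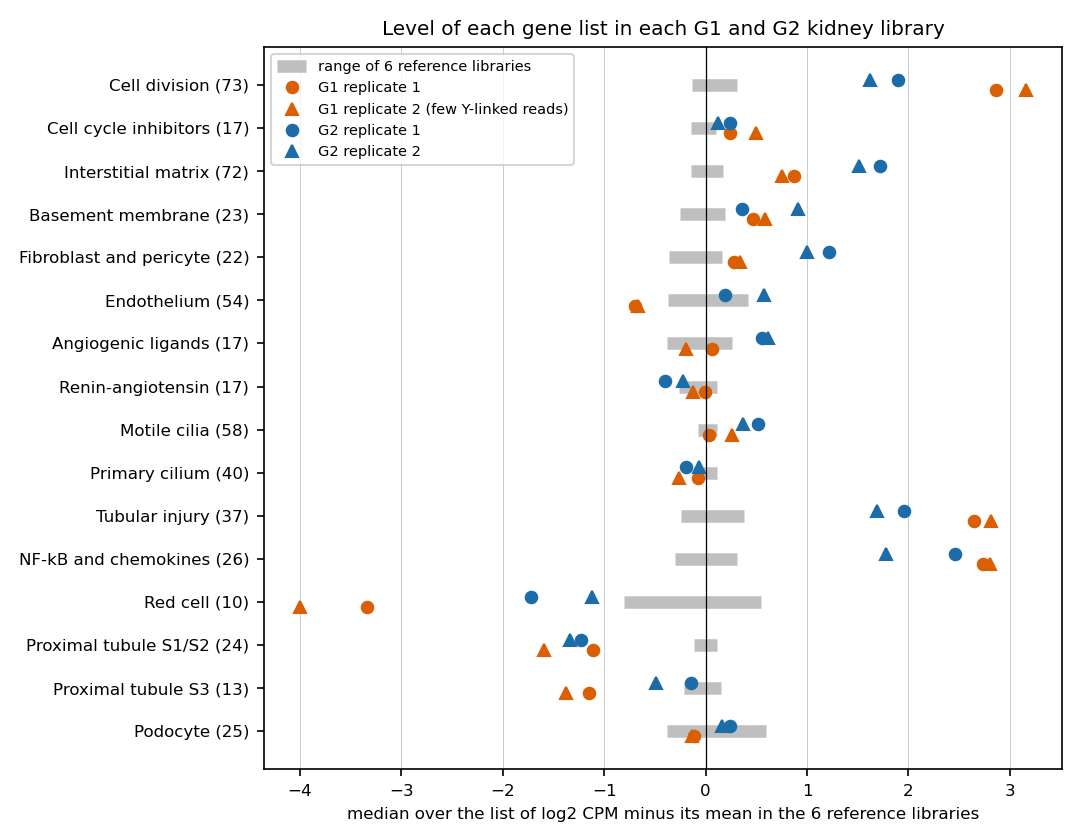
Level of each gene list in each G1 and G2 library: the horizontal axis is the median over the list's tested genes (their number in brackets) of log2 CPM minus its mean in the 6 reference libraries, and the grey bar is the range of those 6. Cell division genes lie highest in G1 (2.86 and 3.16), matrix genes highest in G2 (1.72 and 1.51), and the endothelial list below the reference range in G1 (-0.70 and -0.67).

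Genes of the interstitial matrix went the other way. Of 72 tested, 19 rose and 2 fell in G2 against G1, with a median log2 fold change of 1.04. Over all genes 3.84% rose and 2.88% fell. By role, 6 of 16 interstitial collagens rose and 1 fell, 10 of 26 glycoproteins, proteoglycans and elastic fibre genes rose, and 3 of 30 crosslinking enzymes, proteases and inhibitors rose and 1 fell. Both G2 libraries lay above all 6 reference libraries in 54 of the 72, and both G1 libraries in 38 (21.8% and 27.6% of all genes did so). In level above the reference mean, the list was at 0.87 and 0.75 in G1 and at 1.72 and 1.51 in G2 on the log2 scale.

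Among collagens, Col12a1, which lies along collagen fibrils, was at 18.5 and 16.7 CPM in G1 and 73 and 48.3 in G2 (8.91, 9.77 and 11.7 in the reference). The difference was 1.79 ± 0.21 (log2, SE; adjusted p = 0.00694). Col15a1, a collagen between basement membranes and fibrils, was at 45.8 and 36.4 CPM in G1 and 167 and 120 in G2 (19.5, 27.6 and 33.1 in the reference), a difference of 1.80 ± 0.26 (log2, SE; adjusted p = 0.012). Col1a2, an alpha chain of fibrillar type I collagen, was at 229 and 171 CPM in G1 and 554 and 384 in G2 (54.9, 76 and 97.9 in the reference), a difference of 1.23 ± 0.30 (log2, SE; adjusted p = 0.046). In each of these 3 genes G2 was highest, G1 next and the reference lowest, without overlap. Col1a1, the partner of Col1a2, was at 192 and 133 CPM in G1 and 469 and 290 in G2, with 1.23 ± 0.35 (log2, SE; adjusted p = 0.0696), and Col3a1, of type III collagen, at 243 and 180 CPM in G1 and 496 and 396 in G2, with 1.08 ± 0.37 (log2, SE; adjusted p = 0.119). Neither of these passed the test, although their groups did not overlap. Col5a3, a minor fibril chain, was the collagen that fell: it was at 20.7 and 20.4 CPM in G1 and 11.1 and 6.8 in G2, a difference of -1.20 ± 0.29 (log2, SE; adjusted p = 0.0457).

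Among glycoproteins and elastic fibre genes, several called members were at the reference level in G1 and above it in G2. Mfap4, a microfibril-associated protein, was at 3.36 and 1.41 CPM in G1 and 25.5 and 14.9 in G2 (1.98, 2.88 and 3.64 in the reference), a difference of 3.08 ± 0.44 (log2, SE; adjusted p = 0.0113). Thbs2, a matricellular thrombospondin, was at 5.64 and 4.18 CPM in G1 and 35.5 and 20.5 in G2 (3.43, 5.35 and 7.7 in the reference), a difference of 2.51 ± 0.39 (log2, SE; adjusted p = 0.014). In both, G2 replicate 1 was the highest library of all 10. Fbln1, a fibulin of elastic fibres, was at 14.4 and 9.35 CPM in G1 and 41.9 and 46.7 in G2 (7.43, 11.9 and 16.7 in the reference), a difference of 1.90 ± 0.31 (log2, SE; adjusted p = 0.0147). The small proteoglycan Bgn was at 194 and 170 CPM in G1 and 557 and 436 in G2 (149, 170 and 245 in the reference), a difference of 1.45 ± 0.25 (log2, SE; adjusted p = 0.0181). For these 4 genes the G1 values overlapped the reference range or lay within it, and both G2 values lay above it. Postn, a matrix protein of remodelling tissue, was at 5.27 and 4.99 CPM in G1 and 16.1 and 14.6 in G2 (3.26, 6.88 and 11.4 in the reference), with 1.58 ± 0.52 (log2, SE; adjusted p = 0.106). Fn1, fibronectin, was above the reference in both genotypes, at 172 and 224 CPM in G1 and 352 and 232 in G2 against 31, 40.5 and 58.6, with 0.56 ± 0.31 (log2, SE; adjusted p = 0.299). Neither Postn nor Fn1 passed the test.

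Among enzymes and inhibitors, Serpine2, an inhibitor of thrombin and urokinase, was at 35.5 and 31.8 CPM in G1 and 217 and 111 in G2 (23.2, 37.3 and 54.3 in the reference), a difference of 2.28 ± 0.41 (log2, SE; adjusted p = 0.02). Adamts1, a proteoglycan-cleaving protease, was lower in G2, at 187 and 210 CPM in G1 and 116 and 89.5 in G2, a difference of -0.95 ± 0.22 (log2, SE; adjusted p = 0.0388). Timp1, an inhibitor of matrix metalloproteinases, was at 40.3 and 40.7 CPM in G1 and 49.4 and 27.7 in G2 (0.376, 0.686 and 3.01 in the reference), so both genotypes stood far above the reference and overlapped each other. Mmp7, a matrilysin of injured tubules, was at 0.997 and 1.06 CPM in G1 and 3.73 and 1.17 in G2 (0, 0.0181 and 0.238 in the reference), with 1.25 ± 0.97 (log2, SE; adjusted p = 0.474).

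Basement membrane genes showed no common direction (3 of 23 rose, 1 fell, median log2 fold change -0.07). Lama4, a laminin chain of vessels, was at 4.51 and 4.01 CPM in G1 and 12.6 and 16.8 in G2 (7.13, 9.3 and 14 in the reference), a difference of 1.79 ± 0.30 (log2, SE; adjusted p = 0.0162), so that G1 lay below the reference and G2 overlapped it. Lama2, a laminin chain of mesenchymal cells, rose as well and was at 10.5 and 6.32 CPM in G1 and 29.4 and 23.5 in G2, a difference of 1.66 ± 0.36 (log2, SE; adjusted p = 0.0324). Col4a4, a type IV collagen chain of the mature glomerular membrane, was at 118 and 113 CPM in G1 and 165 and 253 in G2 (254, 306 and 333 in the reference), a difference of 0.85 ± 0.19 (log2, SE; adjusted p = 0.0361). Both genotypes were thus below the reference range for Col4a4, G1 further than G2. Without G2 replicate 2 the difference was 0.47 (adjusted p = 0.162). Col4a1, a chain of most basement membranes, was at 920 and 842 CPM in G1 and 798 and 638 in G2 (172, 261 and 306 in the reference) with -0.30 ± 0.22 (log2, SE; adjusted p = 0.463).

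Markers of fibroblasts and pericytes, the cells that make much of this matrix, were higher in G2: 8 of 22 rose and 1 fell (median log2 fold change 0.71). Over all genes 3.84% rose and 2.88% fell. In bulk tissue, fewer cells of a type and less RNA per cell cannot be told apart. Rgs5, a pericyte marker, was at 35 and 31.6 CPM in G1 and 110 and 90 in G2 (41.8, 55.6 and 67.4 in the reference), a difference of 1.59 ± 0.22 (log2, SE; adjusted p = 0.0106), and Myh11, the myosin of vascular smooth muscle, was at 19.4 and 17.7 CPM in G1 and 54 and 61.9 in G2 (27.7, 40.4 and 48.6 in the reference), a difference of 1.64 ± 0.25 (log2, SE; adjusted p = 0.0134). For both genes G1 lay below and G2 above all 6 reference libraries. Dpt, dermatopontin of fibroblasts, was at 1.71 and 1.08 CPM in G1 and 12.9 and 17.7 in G2 (3.32, 6.57 and 12.1 in the reference), a difference of 3.45 ± 0.54 (log2, SE; adjusted p = 0.0141). Thy1, a surface marker of fibroblasts and also of some lymphocytes, was at 4.46 and 6.85 CPM in G1 and 23.2 and 13.8 in G2, a difference of 1.71 ± 0.29 (log2, SE; adjusted p = 0.0167). Tcf21, a transcription factor of both stroma and podocytes, was at 9.02 and 10.1 CPM in G1 and 35.4 and 31.1 in G2 (7.74, 8.83 and 17.3 in the reference), a difference of 1.80 ± 0.30 (log2, SE; adjusted p = 0.0164). For these 3 genes too both G2 libraries lay above all 6 reference libraries. Vim, vimentin, which injured tubule cells also make, was the member that fell: it was at 477 and 471 CPM in G1 and 240 and 153 in G2 (47, 59.4 and 84.3 in the reference), a difference of -1.27 ± 0.23 (log2, SE; adjusted p = 0.0211). Pdgfrb, the receptor of pericytes and fibroblasts, was at 58.1 and 42.6 CPM in G1 and 120 and 84.3 in G2 with 1.02 ± 0.30 (log2, SE; adjusted p = 0.0802), and Acta2, the actin of smooth muscle and myofibroblasts, at 76.5 and 88.9 CPM in G1 and 164 and 104 in G2 with 0.70 ± 0.28 (log2, SE; adjusted p = 0.165). Neither passed the test, and both G2 values lay above both G1 values for each.

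**Figure D2:**
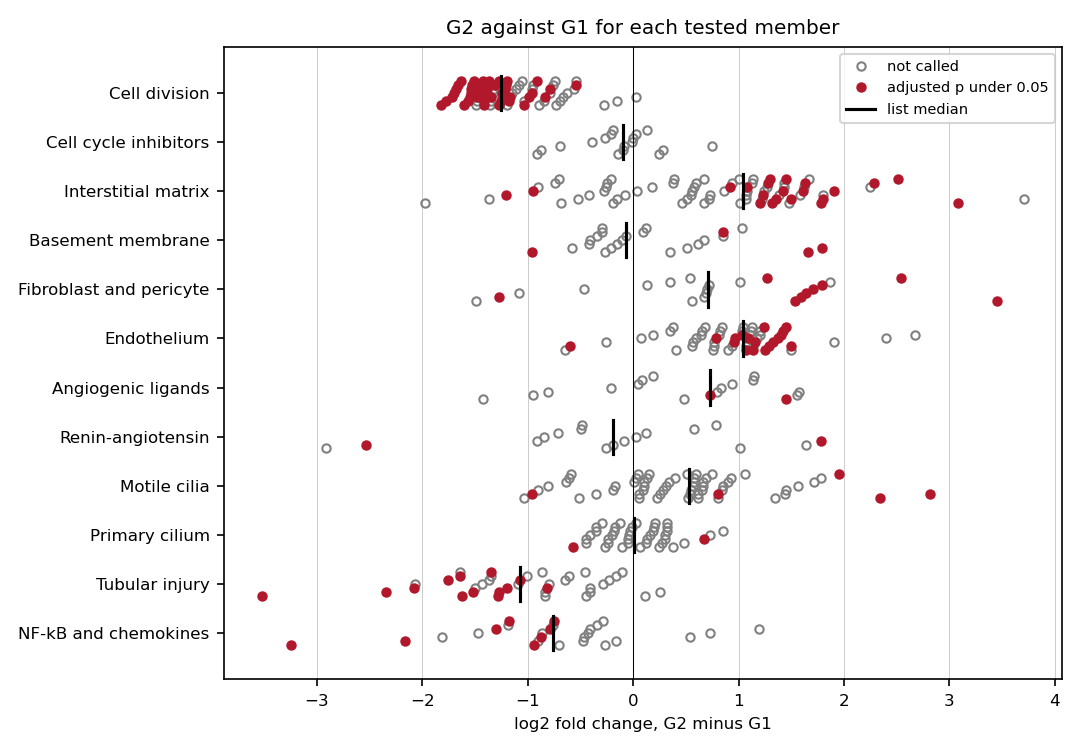
Log2 fold change of G2 minus G1 for every tested member of 12 gene lists, 1 point per gene: filled points have an adjusted p under 0.05, open points do not, and the black bar is the list median. Cell division lies almost wholly left of 0 (median -1.25) while interstitial matrix (1.04) and endothelium (1.04) lie mostly right of it.

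Endothelial genes were higher in G2 than in G1: of 54 tested, 17 rose and 1 fell, with a median log2 fold change of 1.04. Scaled by library totals alone, 6 rose and 0 fell, with a median of 0.99, and DESeq2 called 30 rises and 2 falls. By role the 17 were 10 of 21 receptors and junction genes, 5 of 17 transcription factors, enzymes and secreted proteins, and 2 of 16 markers of arteries, veins and lymphatics. Both G1 libraries lay below all 6 reference libraries for 31 of the 54 genes (26.7% of all tested genes did so) and both G2 libraries for 0 of 54 (18.1% of all genes). Both G2 libraries lay above all of them for 13 (21.8% of all genes), and both G1 libraries for 3 (27.6% of all genes). The list was at -0.70 and -0.67 in G1 and at 0.19 and 0.57 in G2, within or just above a reference range of -0.37 to 0.42.

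Tie1, an endothelial receptor kinase, was at 21.8 and 24.2 CPM in G1 and 47.1 and 62.7 in G2 (33.7, 42.4 and 56.8 in the reference), a difference of 1.25 ± 0.23 (log2, SE; adjusted p = 0.0213). Cdh5, VE-cadherin of endothelial junctions, was at 19.3 and 23.1 CPM in G1 and 42.1 and 64.1 in G2 (24.3, 34.2 and 46.2 in the reference), a difference of 1.33 ± 0.30 (log2, SE; adjusted p = 0.0358). Pecam1, CD31, was at 35.7 and 37.1 CPM in G1 and 60.2 and 92.2 in G2 (43, 57.8 and 77.2 in the reference), a difference of 1.07 ± 0.27 (log2, SE; adjusted p = 0.0476), and of 0.68 without G2 replicate 2 (adjusted p = 0.224). In each of the 3 genes both G1 libraries fell below the reference range, and G2 overlapped it. Plvap, of the diaphragms of fenestrated capillaries, was at 105 and 121 CPM in G1 and 212 and 291 in G2, a difference of 1.15 ± 0.26 (log2, SE; adjusted p = 0.0367). Erg, a transcription factor of endothelial identity, was at 4.83 and 5.12 CPM in G1 and 10.3 and 16.9 in G2, a difference of 1.45 ± 0.28 (log2, SE; adjusted p = 0.0236), and Nos3, endothelial nitric oxide synthase, was at 5.72 and 5.32 CPM in G1 and 10.1 and 14.1 in G2, a difference of 1.13 ± 0.22 (log2, SE; adjusted p = 0.0247). Nr2f2, a vein factor also made by stroma, was at 70.4 and 69.5 CPM in G1 and 127 and 114 in G2, a difference of 0.78 ± 0.14 (log2, SE; adjusted p = 0.0213). For these 4 genes as well both G1 libraries lay below all 6 reference libraries. Ramp2, the partner of the adrenomedullin receptor, was the member that fell, at 47.7 and 47.7 CPM in G1 and 29.3 and 33.7 in G2 (15.8, 20.4 and 22.4 in the reference), a difference of -0.60 ± 0.13 (log2, SE; adjusted p = 0.0314).

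Other defining markers did not pass. Kdr, the VEGF receptor of capillaries, was at 19.7 and 17.4 CPM in G1 and 37 and 41 in G2 (32.1, 49.7 and 78.1 in the reference) with 1.07 ± 0.34 (log2, SE; adjusted p = 0.0943). Ehd3, a marker of glomerular capillaries, was at 22.3 and 22.7 CPM in G1 and 27.2 and 43.6 in G2 (32.4, 43 and 60.9 in the reference) with 0.66 ± 0.28 (log2, SE; adjusted p = 0.195). Vwf, of large vessels, was at 1.81 and 3.48 CPM in G1 and 2.34 and 31.4 in G2 (4.21, 6.03 and 9.95 in the reference), so its value rests on G2 replicate 2, and without that library the log2 difference was -0.22. That library had the higher endothelial level of the 2 in G2. The direction of the 18 called members was all but fixed, since their groups did not overlap. Leaving G2 replicate 2 out lowered the endothelial median to 0.70, and none of the 18 kept its call. It also stood apart in markers of the urothelium and mesothelium (2.04 above the reference mean, against -2.15 in G2 replicate 1, -1.87 and 0.50 in G1, and a reference range of -0.88 to 0.69; 0 of 8 called) and of fat (0.63, against -3.81, -0.96 and -3.12, reference -3.24 to 2.72; 0 of 8 called). Their part in the endothelial values was not tested.

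Angiogenic ligands gave 2 rises among 17, beside 3.84% of all genes (median log2 fold change 0.73, and 0.37 without G2 replicate 2). Vegfa, which podocytes and tubules make to maintain capillaries, was at 63.2 and 67.9 CPM in G1 and 105 and 112 in G2 (138, 190 and 201 in the reference), a difference of 0.73 ± 0.15 (log2, SE; adjusted p = 0.0279). It lay below the reference in both genotypes, and lower in G1. Vegfd, a ligand of lymphatic and vascular receptors, was at 5.9 and 5.04 CPM in G1 and 13.8 and 16 in G2 (5.78, 8.79 and 9.51 in the reference), a difference of 1.45 ± 0.25 (log2, SE; adjusted p = 0.0178), above the reference in G2.

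Renin levels of the 2 genotypes lay on opposite sides of the reference. Ren1 (chr1:133350510-133360325, GRCm38) was at 289 and 281 CPM in G1 and 44.6 and 53.9 in G2, against 60, 109 and 215 in the reference. Both G1 libraries lay above all 6 reference libraries and both G2 libraries below them. The difference between genotypes was -2.53 ± 0.48 (log2, SE; adjusted p = 0.0226), a level 5.79-fold lower in G2. Against Control alone, G1 was higher (log2 fold change 1.63, adjusted p = 0.0135), whereas G2 did not pass the test (-0.91, adjusted p = 0.163). Some mouse strains carry the near-identical copy Ren2, the reference genome does not, and the labels name no strain, so reads of both copies may be counted here. Without G1 replicate 2 the log2 difference was -2.60 (adjusted p = 0.0925), and over the 4 fits that left out 1 G1 or G2 library its adjusted p ran from 0.0717 to 0.0992.

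Of 17 genes of the system tested, 1 rose, and Ren1 alone fell, beside 6.72% called over all genes. DESeq2 called 2 rises and 4 falls among the 17, and 1222 rises and 1277 falls among all 17823 genes. Akr1b7, an aldo-keto reductase of renin cells, was at 2.91 and 2.67 CPM in G1 and 4.81 and 1.32 in G2 (0.597, 0.816 and 2.01 in the reference) with 0.13 ± 0.60 (log2, SE; adjusted p = 0.925). Crip1, another gene of renin cells that other cells also make, was at 83.8 and 89.5 CPM in G1 and 58.8 and 37.9 in G2 with -0.84 ± 0.24 (log2, SE; adjusted p = 0.0717). Ace, which makes angiotensin II, was at 53.6 and 43.1 CPM in G1 and 196 and 135 in G2 (187, 277 and 418 in the reference), a difference of 1.78 ± 0.34 (log2, SE; adjusted p = 0.0226), so G1 lay below the reference and G2 overlapped its lower end. Agt, angiotensinogen, was at 129 and 116 CPM in G1 and 175 and 74.3 in G2 (43.2, 63.1 and 74.8 in the reference), and Agtr1a, the angiotensin receptor, at 31.1 and 23.4 CPM in G1 and 27.7 and 23.8 in G2 (29.9, 33.4 and 51.5 in the reference). The genotypes overlapped for both, with adjusted p = 0.974 and 0.892. Hsd11b2, the enzyme that shields the mineralocorticoid receptor, was at 112 and 168 CPM in G1 and 290 and 274 in G2 (190, 230 and 322 in the reference) with 1.01 ± 0.26 (log2, SE; adjusted p = 0.0537).

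**Figure D3:**
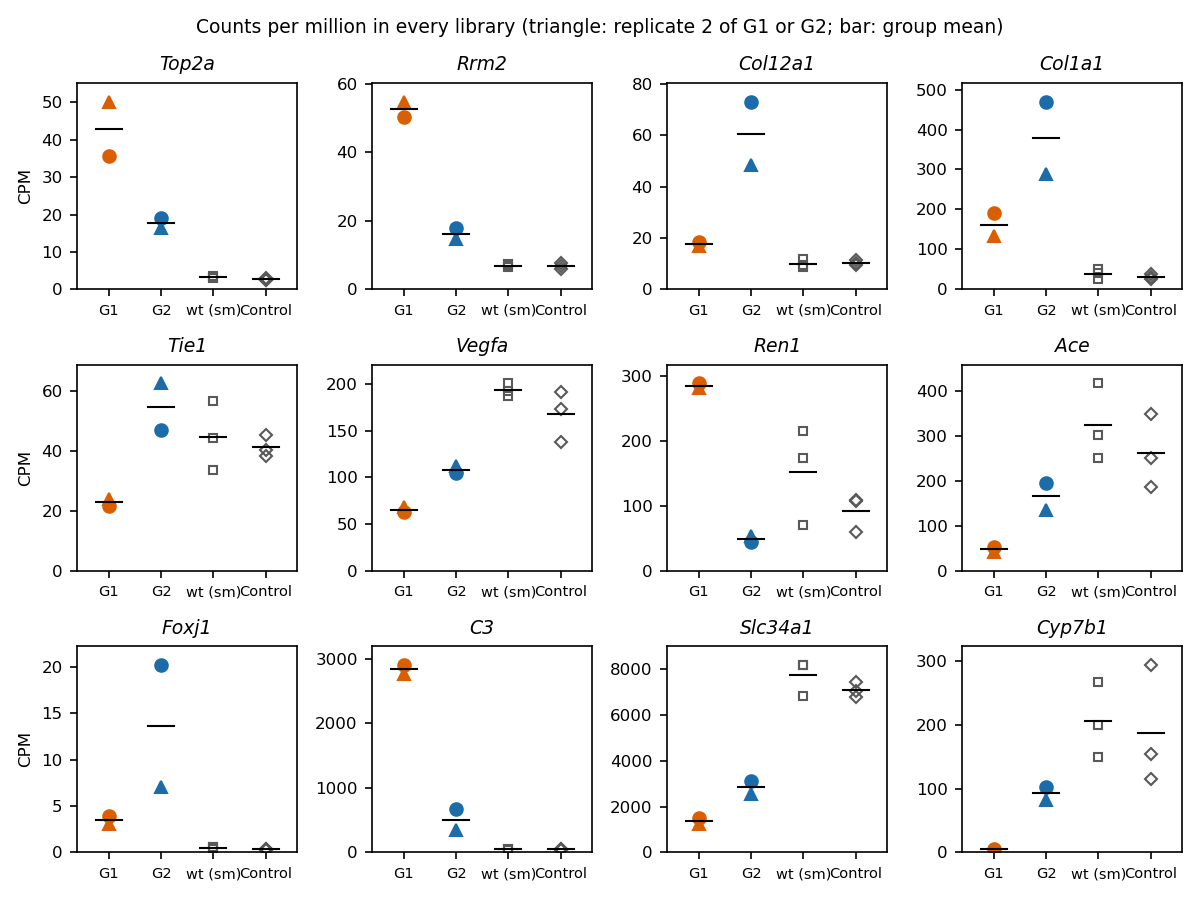
CPM of 12 genes in every library, each panel from 0 on its own linear axis: circles and triangles are replicates 1 and 2 of G1 and G2, open squares the 3 wild type (single mutant) libraries (wt (sm)), open diamonds the 3 Control libraries, and bars the group means. Ren1 is at 289 and 281 in G1 and 44.6 and 53.9 in G2, on either side of the reference, whereas Top2a and C3 lie between G1 and the reference in G2.

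Foxj1, the master transcription factor of motile cilia (chr11:116330704-116335399, GRCm38), was at 3.96 and 3.05 CPM in G1 and 20.2 and 7 in G2, against 0.278, 0.364 and 0.582 in the reference. Both genotypes lay above every reference library and G2 above G1, a difference of 1.96 ± 0.45 (log2, SE; adjusted p = 0.0378). The G2 libraries also lay well apart from each other, and without G2 replicate 1 the difference was 0.93 (adjusted p = 0.144). The call was also lost without either G1 library (adjusted p = 0.168 without replicate 1 and 0.2 without replicate 2), with limma-voom (0.0593) and in the fit over the 4 G1 and G2 libraries (0.113). Of 82 listed motile cilia genes, 24 did not reach the count filter, and of the 58 tested 4 rose, Foxj1 among them, and 1 fell (6.72% of all genes were called). The median log2 fold change was 0.53, and 0.15 without G2 replicate 1. By role, 1 of 6 tested regulators, 3 of 23 dynein arm genes and 0 of 29 genes of the axoneme, spokes and central pair rose.

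Dnah11, an outer arm dynein, was at 0.157 and 0.302 CPM in G1 and 0.617 and 2.64 in G2 (1.33, 1.73 and 2.54 in the reference), a difference of 2.81 ± 0.65 (log2, SE; adjusted p = 0.0388). Without G2 replicate 2 that difference was 1.36 (adjusted p = 0.188), and it was not called with limma-voom (adjusted p = 0.0733) or in the fit over the 4 G1 and G2 libraries (0.125). Dnah9, another outer arm dynein, was at 0.105 and 0.0504 CPM in G1 and 0.552 and 0.274 in G2 (1.26, 1.5 and 2.15 in the reference), a difference of 2.34 ± 0.55 (log2, SE; adjusted p = 0.0402). Of the 3 dynein arm genes that rose, only Dnah11 and Dnah9 are described here. Both were below the reference in G1, and in G2 at or below it, apart from Dnah11 in G2 replicate 2 (2.64 against 2.54). Neither thus exceeded the reference range in both G2 libraries, as Foxj1 did. Dnah5, of the same arm, was at 1.44 and 1.39 CPM in G1 and 1.27 and 0.623 in G2 with -0.59 ± 0.51 (log2, SE; adjusted p = 0.525). Tekt1, an axonemal tektin, stayed at or below 0.227 CPM in all 4 libraries and was not tested. Cfap69, an axonemal protein, was the member that fell, at 10.4 and 13 CPM in G1 and 6.66 and 5.38 in G2, a difference of -0.96 ± 0.22 (log2, SE; adjusted p = 0.0386). GTTNCC, the core of the RFX motif that marks many cilia genes, was present on either strand in 76.8% of 82 promoters of the motile cilia list, in 63.1% of 65 promoters of the cell division list (70% of 30 for DNA replication) and in 45.3% of all promoters.

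Primary cilium genes, which tubule cells use to sense flow, showed no common shift: 1 of 40 rose, 1 fell, and the median log2 fold change was 0.01. The riser was Ift122, of retrograde intraflagellar transport, at 26.2 and 26.6 CPM in G1 and 38.7 and 45.8 in G2, a difference of 0.68 ± 0.13 (log2, SE; adjusted p = 0.0231). The faller was Ift46, of anterograde transport, at 81.5 and 72.8 CPM in G1 and 54.1 and 50 in G2, a difference of -0.57 ± 0.13 (log2, SE; adjusted p = 0.0368). Ift88, a partner of Ift46, was at 16 and 12.6 CPM in G1 and 17.1 and 17.3 in G2 and Pkd1, polycystin 1, at 29.7 and 28.9 CPM in G1 and 38.6 and 58.4 in G2, with adjusted p = 0.417 and 0.101.

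Markers of tubular injury were lower in G2 than in G1. Of 37 genes of tubular injury 13 fell in G2 and 0 rose (median log2 fold change -1.07), beside 2.88% and 3.84% of all genes. Both G2 libraries still exceeded all reference libraries in 31 of the 37 (21.8% of all genes). Krt20, a keratin of injured tubules, was at 174 and 164 CPM in G1 and 16.1 and 13.5 in G2 (0.543, 0.995 and 2.81 in the reference), a difference of -3.52 ± 0.57 (log2, SE; adjusted p = 0.0147). Fosl1, an AP-1 factor, was at 11.3 and 13.2 CPM in G1 and 3.08 and 1.77 in G2, a difference of -2.34 ± 0.36 (log2, SE; adjusted p = 0.0134), and Klf6, an injury-induced zinc finger factor, at 292 and 282 CPM in G1 and 95.6 and 91 in G2, a difference of -1.62 ± 0.27 (log2, SE; adjusted p = 0.0151). Spp1, osteopontin, was at 17620 and 26090 CPM in G1 and 6925 and 3419 in G2 (473, 665 and 963 in the reference), a difference of -2.08 ± 0.42 (log2, SE; adjusted p = 0.0263). Havcr1, the injury marker KIM-1, was at 380 and 268 CPM in G1 and 153 and 55.3 in G2 (2.14, 3.15 and 5.41 in the reference), and Lcn2, the injury marker NGAL, at 217 and 352 CPM in G1 and 119 and 201 in G2 (2.31, 3.06 and 4.6 in the reference). Neither passed the test (adjusted p = 0.0729 and 0.165), and all 4 libraries stood far above the reference for both.

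NF-kB targets and chemokines fell in 8 of 26 and rose in 0 (median -0.76). Over all genes 2.88% fell and 3.84% rose, which is also the background for the complement and interferon counts below. Cxcl1, a neutrophil chemokine, was at 86.8 and 100 CPM in G1 and 13.2 and 6.68 in G2 (0.409, 1.53 and 6.57 in the reference), a difference of -3.24 ± 0.72 (log2, SE; adjusted p = 0.0352). Tnfaip3, the NF-kB feedback inhibitor A20, was at 42.1 and 36.9 CPM in G1 and 16.1 and 16.1 in G2, a difference of -1.30 ± 0.21 (log2, SE; adjusted p = 0.0144). Complement and acute phase genes split, with 3 rises and 3 falls among 28. C3, the central complement protein, was at 2906 and 2770 CPM in G1 and 668 and 350 in G2 (35.9, 49.8 and 59.4 in the reference), a difference of -2.48 ± 0.34 (log2, SE; adjusted p = 0.0106). Serping1, the C1 inhibitor, moved the other way. It was at 114 and 96 CPM in G1 and 284 and 278 in G2 (75.3, 92 and 114 in the reference), a difference of 1.42 ± 0.21 (log2, SE; adjusted p = 0.0122). C8a, which helps form the lytic pore of complement, was at 1.94 and 1.13 CPM in G1 and 24.1 and 24.2 in G2 (20.2, 34.2 and 38.9 in the reference), a difference of 3.97 ± 0.32 (log2, SE; adjusted p = 0.00286), and was called in each of the 4 fits that left out 1 G1 or G2 library. Interferon genes fell in 3 of 30, among them Irf7, at 68.9 and 68.2 CPM in G1 and 22.7 and 25.9 in G2, a difference of -1.50 ± 0.25 (log2, SE; adjusted p = 0.0151).

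Among markers of immune cells edgeR called 1 of 26 for macrophages, 0 of 25 for T and NK cells, 1 of 15 for B and plasma cells and 0 of 7 for neutrophils, beside 6.72% of all genes. At an unadjusted p under 0.05 there were 1 for T and NK cells and 0 for neutrophils, and DESeq2 called 0 in either list. The macrophage list was 2.75 and 2.82 above the reference in G1 and 2.95 and 2.21 in G2. Ms4a7, of tissue macrophages, was the one that rose, at 2.83 and 2.39 CPM in G1 and 20.8 and 11.1 in G2, a difference of 2.60 ± 0.58 (log2, SE; adjusted p = 0.0354). Chil3, a chitinase-like protein of alternatively activated macrophages, outside that list, was at 3.75 and 3.81 CPM in G1 and 0.0974 and 0 in G2, with 294 counts in the G1 and 3 in the G2 libraries, a ratio of 91.9 (95% interval 31.2 to 448, counting error only).

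Among tubule segments, markers of the S3 segment of the proximal tubule were higher in G2 (7 of 13 rose, 2 fell, median 0.88), while those of S1 and S2 split (2 of 24 rose, 3 fell, median -0.05). Over all genes 3.84% rose and 2.88% fell. The highest S3 value was that of Slc7a13, which stands below among the largest rises. Those included several genes with male-biased kidney expression, and the part of sex bias in the S3 values was not tested. Slc34a1, the phosphate carrier of the proximal tubule, was at 1508 and 1251 CPM in G1 and 3125 and 2565 in G2 (6784, 7222 and 8188 in the reference), a difference of 1.04 ± 0.19 (log2, SE; adjusted p = 0.0211). Slc5a12, a lactate carrier, went the opposite way, at 165 and 129 CPM in G1 and 32.4 and 45.3 in G2 (209, 239 and 303 in the reference), a difference of -1.92 ± 0.22 (log2, SE; adjusted p = 0.00626). Both genes lay below the reference in both genotypes, so G1 was further from it for the first and G2 for the second. Slc13a1, the sulphate carrier, was at 1048 and 790 CPM in G1 and 434 and 313 in G2 (253, 291 and 453 in the reference), a difference of -1.30 ± 0.32 (log2, SE; adjusted p = 0.0454). Kl, Klotho of the distal nephron, was at 123 and 118 CPM in G1 and 301 and 274 in G2 (545, 632 and 800 in the reference), a difference of 1.25 ± 0.18 (log2, SE; adjusted p = 0.011). Respiratory chain genes rose in 3 of 24 and fell in 0, beside 3.84% and 2.88% of all genes (median 0.41, and 0.21 without G2 replicate 1). Sdha, of complex II, was at 412 and 371 CPM in G1 and 554 and 593 in G2 (964, 996 and 1062 in the reference), a difference of 0.55 ± 0.11 (log2, SE; adjusted p = 0.0291). Of 22 fatty acid oxidation genes tested, 1 rose and 1 fell (median 0.07), which is 9.09% called and near the 6.72% of all genes. DESeq2 called 2 rises and 4 falls among them, and 1222 rises and 1277 falls among all 17823 genes. Acadm, a dehydrogenase of medium-chain fats, rose and Ppara, the receptor that induces the pathway, fell. Acadm was at 302 and 259 CPM in G1 and 1087 and 910 in G2, a difference of 1.83 ± 0.38 (log2, SE; adjusted p = 0.0286). Ppara was at 23.5 and 16.2 CPM in G1 and 4.16 and 8.72 in G2, a difference of -1.62 ± 0.37 (log2, SE; adjusted p = 0.038).

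Podocyte markers, of the cell that carries the transgene by the series title, gave 3 rises and 1 fall among 25, beside 3.84% and 2.88% of all genes. Their median log2 fold change was 0.29, with 16 above 0 and 9 below. Both G2 libraries lay above both G1 libraries in 13 of them and below in 5 (29.2% and 26.7% of all genes). Nphs1, nephrin, was at 4.46 and 5.72 CPM in G1 and 9.71 and 9.57 in G2 (5.89, 14.4 and 32.3 in the reference) with 0.92 ± 0.64 (log2, SE; adjusted p = 0.423). For this slit diaphragm gene the G2 values were above the G1 values and the reference libraries themselves spread widely. Cd2ap, an adaptor of the slit diaphragm that tubules also make, fell, at 268 and 234 CPM in G1 and 125 and 158 in G2, a difference of -0.83 ± 0.15 (log2, SE; adjusted p = 0.0209).

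Of 10 markers of red cells tested, 5 rose in G2 against G1 and 1 fell (median 1.52), beside 3.84% and 2.88% of all genes. Both G1 libraries lay below all 6 reference libraries for 9 of 10, and both G2 libraries for 6 of 10 (26.7% and 18.1% of all genes did so). On the log2 scale the list was at -3.34 and -4.00 in G1 and at -1.72 and -1.12 in G2, against a reference range of -0.80 to 0.55. Hba-a1, an alpha globin that can share reads with its near-identical copy, was at 11 and 7.48 CPM in G1 and 72.8 and 131 in G2 (169, 274 and 463 in the reference), a difference of 3.46 ± 0.36 (log2, SE; adjusted p = 0.00463). Alas2, the haem synthesis enzyme of red cell precursors, was at 0.393 and 0.428 CPM in G1 and 1.92 and 3.99 in G2 (9.96, 17.3 and 29.4 in the reference), a difference of 2.84 ± 0.43 (log2, SE; adjusted p = 0.0133). These values moved in the same direction as the endothelial list, and the part of blood content in that list was not tested.

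The largest rises among called genes included several genes that mouse kidneys express more in males than in females. By size, with a mean of at least 1 CPM, they were Gm25682, Cck, Slc22a30, Slc22a28, Mpped1, Slc7a13, Gm37194, Gm4208, Gm14236 and Cyp7b1, with log2 fold changes from 5.54 to 4.25. For Gm25682, 3 counts in the G1 libraries stood against 131 in the G2 libraries, a ratio of 46.5 (95% interval 15.6 to 229). Cck, cholecystokinin, was at 0.446 and 0.252 CPM in G1 and 8.96 and 21.3 in G2 (5.65, 11.1 and 14.4 in the reference). Slc7a13, an amino acid carrier of the S3 segment, was at 21.7 and 6.25 CPM in G1 and 476 and 322 in G2 (603, 816 and 926 in the reference), a difference of 4.83 ± 0.55 (log2, SE; adjusted p = 0.00609). Cyp7b1, which hydroxylates oxysterols and androgens, was at 5.4 and 4.33 CPM in G1 and 102 and 82.8 in G2 (115, 177 and 294 in the reference), a difference of 4.25 ± 0.47 (log2, SE; adjusted p = 0.00609). Both G1 libraries lay below all reference libraries for each of these 3 genes. G2 overlapped the reference for Cck and lay below it, but far nearer than G1, for Slc7a13 and Cyp7b1.

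Of 11 listed genes with male-biased kidney expression, 4 rose in G2 and 0 fell (median 3.12), beside 3.84% and 2.88% of all genes. All 11 lay below all 6 reference libraries in both G1 libraries, and 4 did so in both G2 libraries (26.7% and 18.1% of all genes). On the log2 scale, relative to the reference mean, they were at -2.82 in G1 replicate 1, which has Y-linked reads, at -4.85 in G1 replicate 2, which has hardly any, and at -0.73 and -0.86 in G2. Kap, the androgen-dependent kidney protein, was at 2916 and 1073 CPM in G1 and 30860 and 14160 in G2 (15490, 25210 and 41050 in the reference), a difference of 3.50 ± 0.65 (log2, SE; adjusted p = 0.0222), and Cyp4a12a, a fatty acid hydroxylase, at 15.1 and 8.42 CPM in G1 and 108 and 97.3 in G2 (269, 351 and 582 in the reference), a difference of 3.12 ± 0.43 (log2, SE; adjusted p = 0.0107). Without G1 replicate 2 the median over the 11 was 2.403. Both G2 libraries lay above both G1 libraries in all 11 (29.2% of all genes did so). The direction without that library was thus all but fixed and is no separate support. Hormone levels were not measured, and their part was not tested.

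The largest falls were Xist, Chil3, Ugt1a2, Crct1, Gm10639, Apoc4, Orm3, Atp13a4, Krt20 and Kcnip2, with log2 fold changes from -9.01 to -3.39. Xist rests on G1 replicate 2 alone (360 CPM against 1.13 in replicate 1) and without that library its log2 difference was -1.77 (adjusted p = 0.161). Ugt1a2, a glucuronosyltransferase whose exons are shared with its neighbours, was at 12.9 and 34.9 CPM in G1 and 0.325 and 0.897 in G2. Orm3, an acute phase orosomucoid, was at 2.65 and 1.86 CPM in G1 and 0.195 and 0.0997 in G2, and Atp13a4, a cation-transporting ATPase, at 7.18 and 9.68 CPM in G1 and 0.974 and 0.473 in G2. Crct1, a gene of cornified epithelium, was at 2.88 and 2.7 CPM in G1 and 0.13 and 0.0747 in G2 and had 0 counts in all reference libraries, which allows at most 0.109 CPM in any of them. Lack of overlap was a condition for this choice, so both G1 values lay above both G2 values by selection.

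The weight of G1 replicate 2 was read from the fit without it. All 1198 called genes kept their direction. Their groups did not overlap, so leaving out 1 library could hardly reverse them, and the kept direction is no separate support. The ratio of the new to the old log2 fold change had a median of 0.994 (5th to 95th percentile 0.769 to 1.24). Only 5 of the 1198 shrank by more than 1.5 times, Xist among them (from -9.01 to -1.77). Calls were another matter: 23 genes passed the threshold without it, 22 of them among the 1198. Among the cell division genes only Rrm2 kept its call, and the matrix, endothelial and motile cilia lists kept none with edgeR. The 43, 21, 18 and 5 members called in these lists with all libraries kept their direction, which lack of overlap had all but fixed. Leaving out G1 replicate 1 in its place gave 92 calls, 83 of them among the 1198, with a median ratio of 1.01. Leaving out G2 replicate 1 gave 809 calls and G2 replicate 2 gave 203. With 1 library left in an arm, that library is assumed to vary as the other groups do.

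G1 replicate 2 was farther from G2 than G1 replicate 1 in 631 of the 1198 genes (52.7%). Between the 2 G1 libraries the median absolute log2 difference over all tested genes was 0.18, and between the 2 G2 libraries 0.28. More than 1 log2 unit separated the G1 libraries in 1006 genes and the G2 libraries in 1930. By this measure the 2 G1 libraries were closer to each other than the 2 G2 libraries were. The list medians without G1 replicate 2 were -1.11 for cell division, 0.84 for matrix, 1.02 for endothelium and 0.44 for motile cilia.

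**Figure D4:**
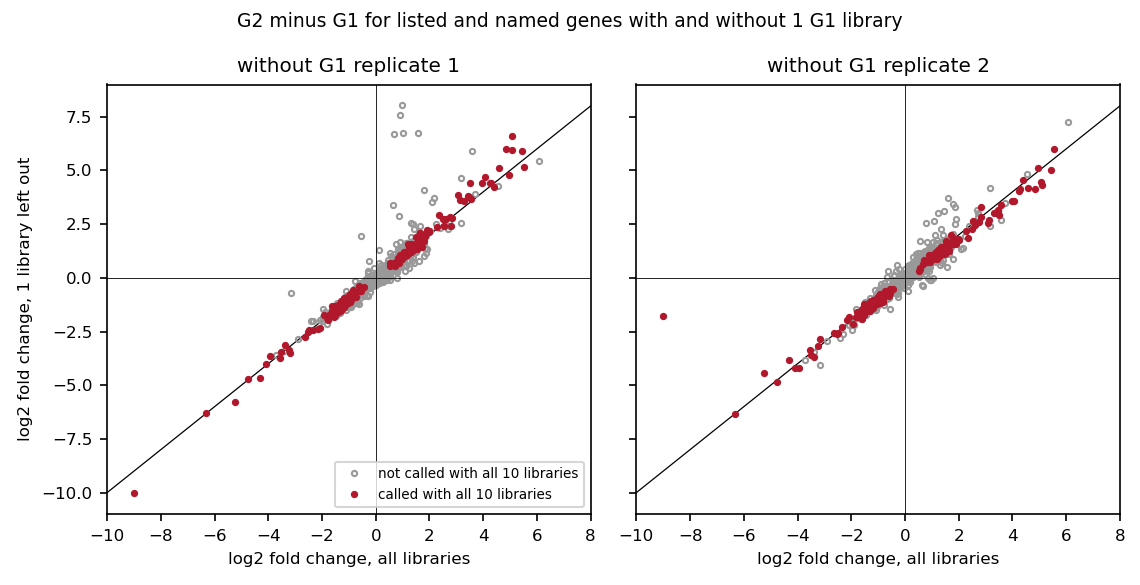
Log2 fold change of G2 minus G1 for the listed and named genes with all 10 libraries (horizontal) and with 1 G1 library left out (vertical), where the black line marks equal values and filled points were called with all 10. Points lie along the line in both panels; without G1 replicate 2, Xist moves from -9.01 to -1.77.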

How the data were processed

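Per the labels' protocols, poly(A) RNA of frozen mouse kidneys was sequenced as single-end reads of 100 bases on an Illumina HiSeq instrument. The submitters' processing notes name STAR 2.4.1d, HTSeq 0.6.1, CASAVA 1.8.2, Trim Galore and FastQC, with the build GRCm38. Settings, annotation release and strand are not given there, so antisense and overlapping genes cannot be separated. The authors deposited raw read counts per gene, 1 file per library, without normalization. Of 46517 gene IDs, 46005 matched a symbol of GENCODE M21. Replicates were numbered by accession order, which pairs no libraries. No pair of libraries agreed within sampling noise (chi-square per gene at least 26.2).

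Counts were fitted with edgeR 4.0.16 (R 4.3.3): a filter at a minimum count of 10, TMM scaling, a quasi-likelihood fit over all 4 groups (10 libraries, common biological coefficient of variation 0.249) and Benjamini-Hochberg adjustment over 17823 genes, called under 0.05. CPM are TMM-scaled. A permutation of 2 against 2 libraries cannot go below a two-sided p of 0.333. The fit was tested on simulated data. Alternatives used DESeq2 1.42.0, limma 3.58.1 and the settings in the closing section. The 35 gene lists held 849 symbols, of which 847 matched and 796 were tested. Genes and lists were chosen with earlier results of these data known. Named genes were the 10 largest rises and falls (called, without overlap, averaging 1 CPM or more), the members with the lowest p of each list, and a fixed set for each topic. Adamts1, Alas2, Col1a2, Col5a3, Cxcl1, Kap, Ramp2, Serpine2, Slc13a1 and Spp1 were picked after their values were seen. Some genes are not reported here. Promoters come from RefSeq (GRCm38.p6). Intervals cover counting error only.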

Additional observations from a re-analysis of the deposited data

How the results depend on the processing

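Without a count filter, with a minimum count of 50, under either other scaling, with limma-voom and without the wild type (single mutant) group, the count of called genes stayed within 1.5 times of 1198. DESeq2 called 2499, and a fit over the 4 G1 and G2 libraries 736. Leaving out 1 library gave 23 (without G1 replicate 2) to 1440 (without wild type (single mutant) replicate 3) calls, with 92 without G1 replicate 1, 203 without G2 replicate 2, 723 without wild type (single mutant) replicate 1 and 746 without Control replicate 1. For G1 against Control the range was 3477 to 6904 and for G2 against Control 2023 to 4115. List medians ranged, over the fits with 1 library left out, from -1.545 to -1.114 for cell division, 0.815 to 1.096 for matrix, 0.620 to 1.001 for fibroblasts and pericytes, 0.704 to 1.087 for endothelium, 0.375 to 0.726 for angiogenic ligands, -0.439 to -0.059 for the renin system, 0.147 to 0.534 for motile cilia (0.416 with a minimum count of 50) and -0.080 to 0.048 for the primary cilium. The cause of these shifts was not tested.

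Of 110 named genes, 85 were called. None of these 85 changed direction under any of the 18 alternatives, and over all 18 they kept their call in 1172 values and lost it in 356, mostly where a G1 or G2 library was left out (5 of 85 called without G1 replicate 2, 15 without G1 replicate 1, 27 without G2 replicate 2, 54 without G2 replicate 1). Direction changed only in genes that were not called, which the selection all but fixed. Called genes had no overlap between G1 and G2, so leaving out 1 library could hardly reverse them. Leaving out a reference library left the G2 minus G1 values almost unchanged. Agt stood at 0.03 and at -0.01 with DESeq2's size factors, DESeq2 and no filter, -0.04 with library totals and -0.09 with limma-voom, and ranged from -0.79 to 0.47 with 1 library left out. Akr1b7 was at -0.21 with limma-voom and ranged from -1.15 to 0.74. Agtr1a ranged from -0.33 to 0.14, Timp1 from -0.62 to 0.24 and Vwf from -0.22 to 3.49. A fit with a term for Y-linked reads was not run, since G1 replicate 2 alone has under 1 CPM of them and such a term equals leaving it out. No paired analysis was possible because the labels carry no replicate numbers shared between the genotypes.

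With 2 libraries in each arm, 1 G1 library almost without Y-linked reads, a gene that missed the threshold is not shown to be alike in G1 and G2. Neither separate mice, nor sex, age, strain or driver are labelled, and the CPM of genes near 3 counts carry large counting error.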

Other observations

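Immediate early genes, which tissue induces within minutes of stress or handling, were lower in G2 than in G1: 3 of 16 tested fell and 0 rose with edgeR, with a median log2 fold change of -0.91, and both G2 libraries lay below both G1 libraries in 15 of the 16 (26.7% of all genes did so). The reference libraries spread from -0.84 to 0.92 around their own mean for this list, with G2 at 0.82 and 0.62 inside that range and G1 at 1.67 and 1.48 above it. Klf4, a stress-induced zinc finger factor, was at 31.3 and 25.9 CPM in G1 and 12.5 and 15.1 in G2 (adjusted p = 0.0346). Distal nephron markers leaned to G2, with 3 of 17 higher and 0 lower (median 0.43), beside 3.84% and 2.88% of all genes. Calb1, the calcium buffer of the distal convoluted tubule, was at 65.2 and 69.4 CPM in G1 and 173 and 170 in G2, and Pvalb, a calcium-binding protein of the same segment, at 4.43 and 3.91 in G1 and 22.8 and 33.3 in G2. Both genes lay below all 6 reference libraries in both genotypes.

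Megf6, a protein with many EGF-like repeats, was picked after its values were seen. It was at 5.07 and 4.98 CPM in the G2 libraries, 0.367 and 0.479 in the G1 libraries and 0.145 to 0.694 in the reference, a log2 fold change of 3.56 ± 0.54 (SE, adjusted p = 0.0131). Both G2 libraries thus agreed closely on a level that none of the other 8 libraries reached. Ttr, transthyretin, also picked after its values were seen, followed no genotype: it was at 141 and 114 CPM in G1, 332 and 1.35 in G2, and from 1.83 to 400 in the reference with a median of 3.01.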
